A study of Mus musculus with 30 samples.

Results

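The day-night difference in the transcriptome of young mouse hearts was measured in 6 hearts, 3 taken at Zeitgeber time 10 (ZT10, late in the light phase) and 3 at ZT22 (late in the dark phase). These 6 hearts were chosen by their labels, as the young hearts of a series of 30 samples of which 18 are hearts. The mice were female C57BL6 animals of 2 months (8 weeks in the sample titles), kept in 12:12 light and dark with chow and water freely available, and none had been given nicotinamide riboside (NR; their treatment label is MQ). The labels give them no transgene, and the study's methods describe a mixed C57Bl6J and C57Bl6N background. Each library was made from the heart of an individual mouse, so the 3 libraries of a group are separate animals. Old hearts of 12 months from female C57BL6 mice, also without NR and housed in the same way, 3 at ZT10 and 3 at ZT22, were compared to ask where the change differed with age, and they are called old H2O hearts here. These hearts, and 6 old hearts given NR whose values are not described, also entered the fit that estimates the spread between replicates. Hearts at ZT22 were collected with the lights off under red light, which the labels do not say of ZT10, so time of day and the lighting at collection cannot be told apart. A pair of time points gives a difference between them and neither a phase nor an amplitude.

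The mammalian circadian clock is a feedback loop of transcription that runs in almost every cell, cardiomyocytes included. The activators BMAL1 (encoded by Arntl) and CLOCK, or its relative NPAS2, bind E-box sequences and switch on the genes of their own repressors, the PER and CRY proteins. They also switch on the nuclear receptors REV-ERB alpha and beta, which in turn repress Arntl, and the PAR bZIP factors DBP, TEF and HLF, which carry the rhythm to D-box sequences of further genes. In the heart this system is known to time metabolism, ion channels and the response to stress, and feeding, body temperature and hormones add daily signals of their own.

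The 6 libraries held between 4538090 and 6068397 counted reads over genes. A principal component that held 39.9% of the variance of log2 values placed the 3 ZT10 hearts between -26.88 and -23.44 and the 3 ZT22 hearts between 19.69 and 28.43. The next component (17.9%) set ZT22 replicate 1, at -33.74, apart from the other ZT22 hearts, at 20.11 and 8.21. None of the 12 ventricular cardiomyocyte markers was called by edgeR (3 had an unadjusted p under 0.05, DESeq2 called 1 on the 6 hearts alone, and edgeR with library size as covariate called Tnnt2, Gata4 and Nkx2-5), and Myh6, the main ventricular myosin, gave 10613, 10340.3 and 12545 at ZT10 and 12358, 8991 and 10279.9 at ZT22 in TMM-normalized counts (counts scaled to the mean effective library size of all hearts). The 6 lists of markers of B cells, T cells, red blood cells, adipose tissue, skeletal muscle and lung gave no edgeR call among 33 members tested, with 2 at an unadjusted p under 0.05 and 0 called by DESeq2. Leaving out 1 heart gave at most 1 adipose and 1 skeletal muscle call in edgeR. Its other settings gave at most 1 call each for adipose tissue, skeletal muscle and lung. Apart from fibroblasts and endothelium, described further on, 2 of 12 macrophage markers (Cd68, 0.52, and Mrc1, 0.35), 1 of 12 pericyte and smooth muscle markers (Myh11, 0.62) and 1 of 6 Schwann cell and neuron markers (Dbh, 0.79) were called higher at ZT10. Wt1 (-0.81) of 4 epicardial markers was called higher at ZT22 (edgeR adjusted p from 0.00747 to 0.0221 for these 5 genes). Only Myh11 of them kept its call whichever heart was left out, and the part of these cells in the results was not tested. Atrial markers were uneven: 3 of 12 (Bmp10, Kcnj3 and Nr2f2) were called higher at ZT10, with a median of 0.36, and none of them kept its call whichever heart was left out. The summed normalized count of 12 atrial markers ran from 3739 to 8212 at ZT10, with replicate 1 highest, and from 3205 to 4399 at ZT22. Bmp10, a growth factor of the atrium, gave 1826, 25.9 and 2.51 at ZT10 and 2.53, 4.69 and 1.04 at ZT22. ZT10 replicate 1 alone thus set its log2 fold change of 7.71, and its call was lost without ZT10 replicate 1 or ZT22 replicate 1, 2 or 3.

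Each of the 15443 genes with an average count over 5 was tested with edgeR's quasi-likelihood test, and a gene was called at a Benjamini-Hochberg adjusted p under 0.05 over all of them. In young hearts 2219 genes (14.4%) were called: 1050 (6.8%) were higher at ZT10 and 1169 (7.57%) were higher at ZT22. The changes were mostly small. The median absolute log2 fold change was 0.46 for genes higher at ZT10 and 0.41 for genes higher at ZT22, against 0.16 over all genes tested. At least 2-fold differences were found in 138 genes higher at ZT10 and 160 higher at ZT22, and at least 4-fold differences in 15 and 29. The 3 values at one time did not overlap the 3 at the other in 2113 of the called genes, beside 30.6% of all genes tested. The median log2 fold change over all genes was 0.01 (ZT10 minus ZT22, so that positive values are higher at ZT10 throughout). With genes split by mean count into 4 equal groups, the share called was 4.97% in the lowest, then 13.9%, 20.5% and 18.1%, so little was detectable among genes of low count. Leaving out 1 heart gave between 1484 and 2108 called genes, the fewest without ZT22 replicate 2 (751 higher at ZT22 in place of 1169), and 1020 genes were called in all 6 such fits.

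**Figure D1:**
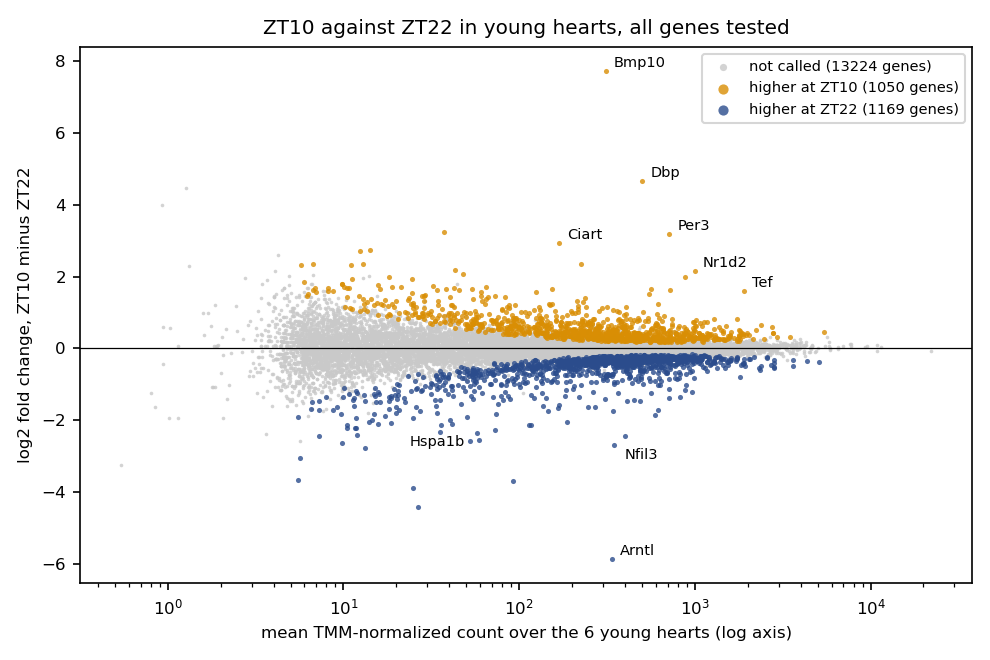
Mean TMM-normalized count over the 6 young hearts (log axis) against the log2 fold change of ZT10 minus ZT22 for all 15443 genes tested. Each point is a gene; orange points were called higher at ZT10 (1050), blue points higher at ZT22 (1169) and grey points were not called. Arntl lies lowest, at -5.86, and Bmp10, which 1 heart sets, lies highest.

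Among genes with a mean count of at least 50 and no overlap between times, the 8 with the largest changes in each direction included 7 clock genes. Arntl (chr7:113207465-113314126, GRCm38), which encodes the clock activator BMAL1, had normalized counts of 8.89, 14.5 and 10.1 at ZT10 and 643, 737 and 602 at ZT22. Every ZT22 heart held far more Arntl RNA than any ZT10 heart, a 58.1-fold difference (log2 fold change -5.86, SE 0.18, edgeR adjusted p = 4.91e-16). Dbp (chr7:45705088-45710203), a D-box binding factor, ran the opposite way, with 1093, 882 and 923 at ZT10 and 43.1, 23.4 and 50.2 at ZT22. All 3 ZT10 hearts lay above all ZT22 hearts by an order of magnitude (log2 fold change 4.66, SE 0.15, edgeR adjusted p = 1.46e-15).

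The next largest rises at ZT10 were those of Per3 (chr4:151003652-151044665), Ciart, Arrdc2, Nr1d2, Per1, Chac1 and Lrrc17. Arrdc2, an arrestin-domain protein, had counts of 318, 462 and 345 at ZT10 and 79.8, 59.1 and 82.5 at ZT22 (log2 fold change 2.36, SE 0.23, edgeR adjusted p = 2.38e-07). Chac1, an enzyme that degrades glutathione, had counts of 78.9, 117 and 103 at ZT10 and 27.9, 37.5 and 25.1 at ZT22 (log2 fold change 1.71, SE 0.27, edgeR adjusted p = 0.000177). Lrrc17, a secreted leucine-rich repeat protein, had counts of 73.4, 90.2 and 81.7 at ZT10 and 31.7, 24.4 and 21.9 at ZT22 (log2 fold change 1.67, SE 0.18, edgeR adjusted p = 1.53e-06). In each of these 3 genes the lowest ZT10 heart stood at 2 times the highest ZT22 heart or more.

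On the ZT22 side the largest changes after Arntl were those of Spon2, Nfil3, Tmem171, Cdkn1a, Hspa1b, Gm46637 and Sdf2l1. Spon2 (chr5:33198184-33218455), a secreted matrix protein, had counts of 16.7, 13.5 and 8.79 at ZT10 and 199, 199.8 and 115 at ZT22 (log2 fold change -3.69, SE 0.34, edgeR adjusted p = 1.33e-07). Tmem171, a membrane protein, had counts of 15.6, 12.4 and 23.9 at ZT10 and 105, 89.1 and 109 at ZT22 (log2 fold change -2.56, SE 0.22, edgeR adjusted p = 4.55e-08). Cdkn1a (chr17:29090976-29100727), the cell cycle inhibitor p21, had counts of 112, 128 and 138 at ZT10 and 487, 763 and 777 at ZT22 (log2 fold change -2.43, SE 0.22, edgeR adjusted p = 1.44e-07). Each of the 3 genes was several times higher in every ZT22 heart than in any ZT10 heart. Gm46637, a predicted gene without an assigned function, had counts of 25.6, 30.1 and 18.8 at ZT10 and 57, 163 and 140 at ZT22, with ZT22 replicate 1 well below the other ZT22 hearts (log2 fold change -2.28, SE 0.32, edgeR adjusted p = 3.3e-05).

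The clock activators were all higher at ZT22: 3 of 3 were called, with a median log2 fold change of -2.13. Npas2 had counts of 30.02, 45.6 and 52.8 at ZT10 and 162, 212 and 182 at ZT22 (log2 fold change -2.13, SE 0.15, edgeR adjusted p = 2.34e-09). Clock had counts of 441, 474 and 475 at ZT10 and 1061, 1308 and 1152 at ZT22 (log2 fold change -1.34, SE 0.10, edgeR adjusted p = 9.12e-09). Neither gene's hearts overlapped between times, and Clock was the most abundant activator in reads at both times.

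All 8 repressors were called, 7 higher at ZT10 and Cry1 higher at ZT22, with a median of 1.35. Per3, a Period protein, had counts of 1247, 1242 and 1367 at ZT10 and 144, 122 and 159 at ZT22 (log2 fold change 3.18, SE 0.09, edgeR adjusted p = 3.72e-16). Per1 had counts of 1319.6, 1351 and 1549 at ZT10 and 309, 388 and 355 at ZT22 (log2 fold change 1.99, SE 0.14, edgeR adjusted p = 1.35e-09). Per2 had counts of 882, 848 and 840.4 at ZT10 and 182, 274 and 345 at ZT22 (log2 fold change 1.67, SE 0.14, edgeR adjusted p = 3.49e-08). The 3 Period genes were thus higher in every ZT10 heart than in every ZT22 heart, and Per2 was the one whose ZT22 hearts spread most. Ciart, a small repressor of the activators, had counts of 325, 298 and 266 at ZT10 and 34.2, 34.7 and 47 at ZT22 (log2 fold change 2.93, SE 0.15, edgeR adjusted p = 1.04e-11). Bhlhe41 and Bhlhe40, which encode the E-box repressors DEC2 and DEC1, rose at ZT10 with log2 fold changes of 1.03 and 0.57 (edgeR adjusted p = 1.25e-07 and 0.00164). The cryptochromes split. Cry2 was higher at ZT10, with 698, 707 and 716 at ZT10 and 407, 518 and 502 at ZT22 (log2 fold change 0.57, SE 0.07, edgeR adjusted p = 1.2e-05). Cry1 was higher at ZT22, with 248, 257 and 196 at ZT10 and 449.9, 502 and 436 at ZT22 (log2 fold change -0.98, SE 0.09, edgeR adjusted p = 1.23e-07).

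The REV-ERB receptors rose at ZT10. Nr1d2 (REV-ERB beta) had counts of 1631, 1602 and 1647 at ZT10 and 337, 387 and 374 at ZT22 (log2 fold change 2.15, SE 0.11, edgeR adjusted p = 1.62e-11). Nr1d1 (REV-ERB alpha) had counts of 956, 711 and 785 at ZT10 and 281, 353 and 223 at ZT22 (log2 fold change 1.51, SE 0.15, edgeR adjusted p = 3.71e-07). The ROR receptors are activators that read the same DNA element. Rora had overlapping values of 525, 718 and 652 at ZT10 and 439, 579.6 and 511 at ZT22 and was not called (edgeR adjusted p = 0.0641), although it passed without ZT10 replicate 1 or without ZT22 replicate 2. Rorb had few reads, 17.8, 19.7 and 22.6 at ZT10 and 17.7, 10.3 and 11.5 at ZT22, and was not called either (edgeR adjusted p = 0.216).

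The PAR bZIP activators Tef and Hlf rose at ZT10 beside Dbp. Tef had counts of 2854, 2738 and 2951 at ZT10 and 928, 836 and 1085 at ZT22 (log2 fold change 1.58, SE 0.10, edgeR adjusted p = 5.01e-10). Hlf had counts of 1212, 1028 and 1041 at ZT10 and 357, 311 and 402 at ZT22 (log2 fold change 1.62, SE 0.09, edgeR adjusted p = 7.6e-11). Nfil3 (chr13:52967209-52981073), the repressor that competes for the same D-box, was higher at ZT22, with 74.5, 114 and 91.7 at ZT10 and 517, 652 and 625 at ZT22 (log2 fold change -2.68, SE 0.16, edgeR adjusted p = 1.81e-10). No heart of either time crossed into the range of the other for any of these genes. Of 13 clock kinases and ligases tested only Usp2, a deubiquitinase, was called, at 0.83 (edgeR adjusted p = 3.02e-08), although 3 were called without ZT22 replicate 3. All calls in these clock lists, that on Usp2 included, were kept whichever heart was left out.

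**Figure D2:**
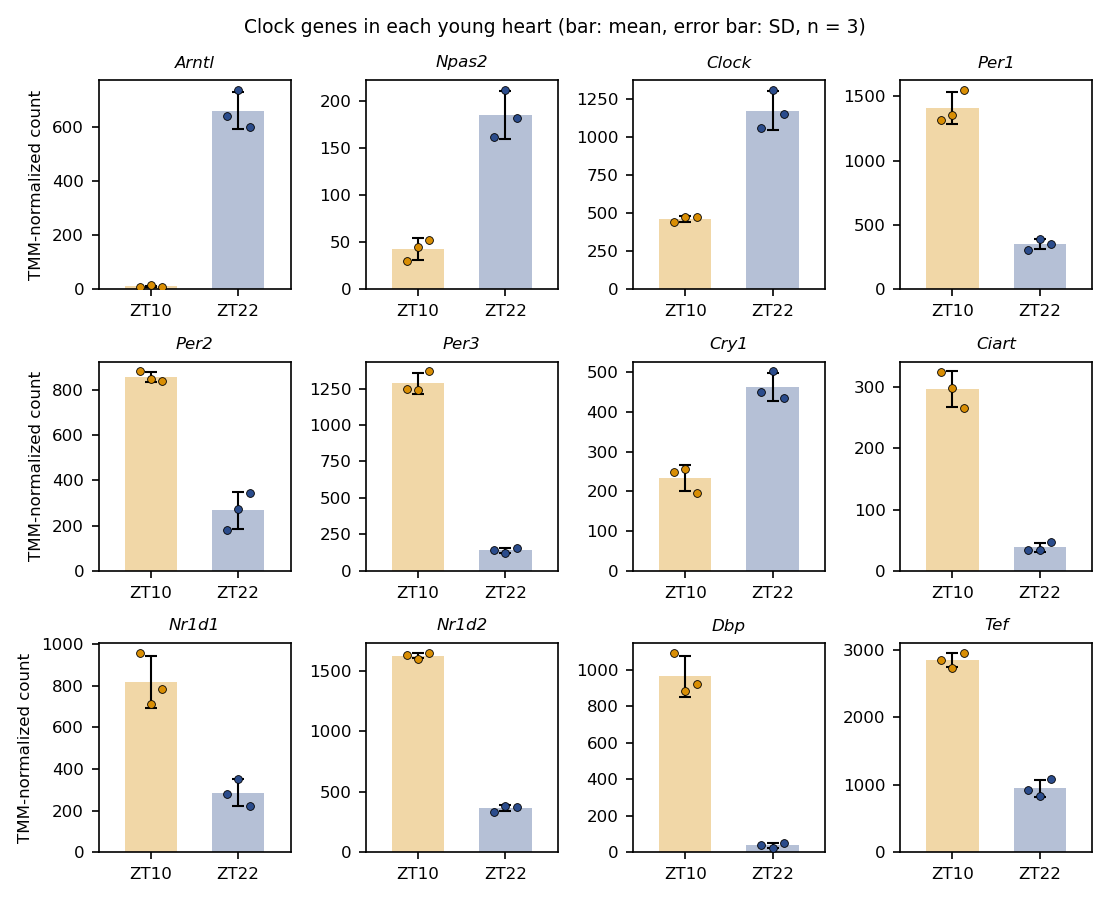
TMM-normalized counts (vertical axes, each from 0) of 12 clock genes in the 3 young hearts at ZT10 and the 3 at ZT22. Points are hearts, bars are means and error bars are SD (n = 3); Arntl, Npas2, Clock and Cry1 are higher at ZT22 and the other 8 are higher at ZT10, with no overlap between times in any panel.

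E-box and D-box letters stood close to the start of some of these genes. The stretches are shown because the clock factors whose RNA moved most are known to read these elements. RefSeq promoters of build GRCm38.p6, 250 bases before to 50 bases after a start, were found for 17 clock genes of these 4 lists and for 11343 of the genes tested. The E-box CACGTG, which reads the same on both strands, occurred in 5 of the 17 (29.4%), beside 11.5% of the 11343. It occurred in promoters of 14.1% of genes higher at ZT10 (114 of 811) and of 13.1% of genes higher at ZT22 (116 of 888). Per1, Ciart, Tef and Bhlhe41 were higher at ZT10, whereas Cry1, with the same element, was higher at ZT22. The D-box, searched as TTATGTAA or TTACGTAA on both strands, occurred among the clock genes in the Per3 promoter alone, where it stood at 2 places. Of the 11343 genes, 0.855% held it. Below, capitals mark the element and the element lies before the start (a stretch is shorter where an annotated exon overlaps it):
Per1, chr11:69098751-69098820, plus strand: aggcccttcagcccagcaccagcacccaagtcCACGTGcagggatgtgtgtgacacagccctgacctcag
Ciart, chr3:95882307-95882376, minus strand: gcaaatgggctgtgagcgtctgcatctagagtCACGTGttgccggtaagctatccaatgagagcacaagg
Tef, chr15:81811244-81811313, plus strand: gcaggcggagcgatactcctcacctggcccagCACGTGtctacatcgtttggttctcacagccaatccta
Bhlhe41, chr6:145865556-145865585, minus strand: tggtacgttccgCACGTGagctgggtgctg
Cry1, chr10:85185077-85185146, minus strand: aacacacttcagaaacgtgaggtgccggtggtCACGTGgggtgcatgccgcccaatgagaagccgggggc
Per3, chr4:151044832-151044901, minus strand: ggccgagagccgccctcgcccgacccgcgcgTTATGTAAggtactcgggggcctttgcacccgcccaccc
Per3, chr4:151044785-151044854, minus strand: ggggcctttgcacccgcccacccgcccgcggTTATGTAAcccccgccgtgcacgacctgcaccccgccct
The E-box shown began 166 bases before the start in Per1, 116 in Ciart and 60 in Cry1. Ciart held further E-boxes 58 and 44 bases before its start, and another Tef promoter held one 127 bases before its start. A match in these windows is a description of letters and not a measured binding site.

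Of the 44 lists of genes by function, 1320 genes were tested and 261 (19.8%) were called, beside 14.4% of all genes tested. In the groups of highest and next highest mean count given above, the shares called were 18.1% and 20.5%. Whether the lists exceeded other genes of similar count was not tested, and they were chosen with earlier results known. The lists with the highest shares called at ZT22, clock genes aside, were endoplasmic reticulum (ER) chaperones, immediate early genes, stress markers and heat shock chaperones. At ZT10 they were cold-inducible proteins and glucocorticoid receptor targets.

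**Figure D3:**
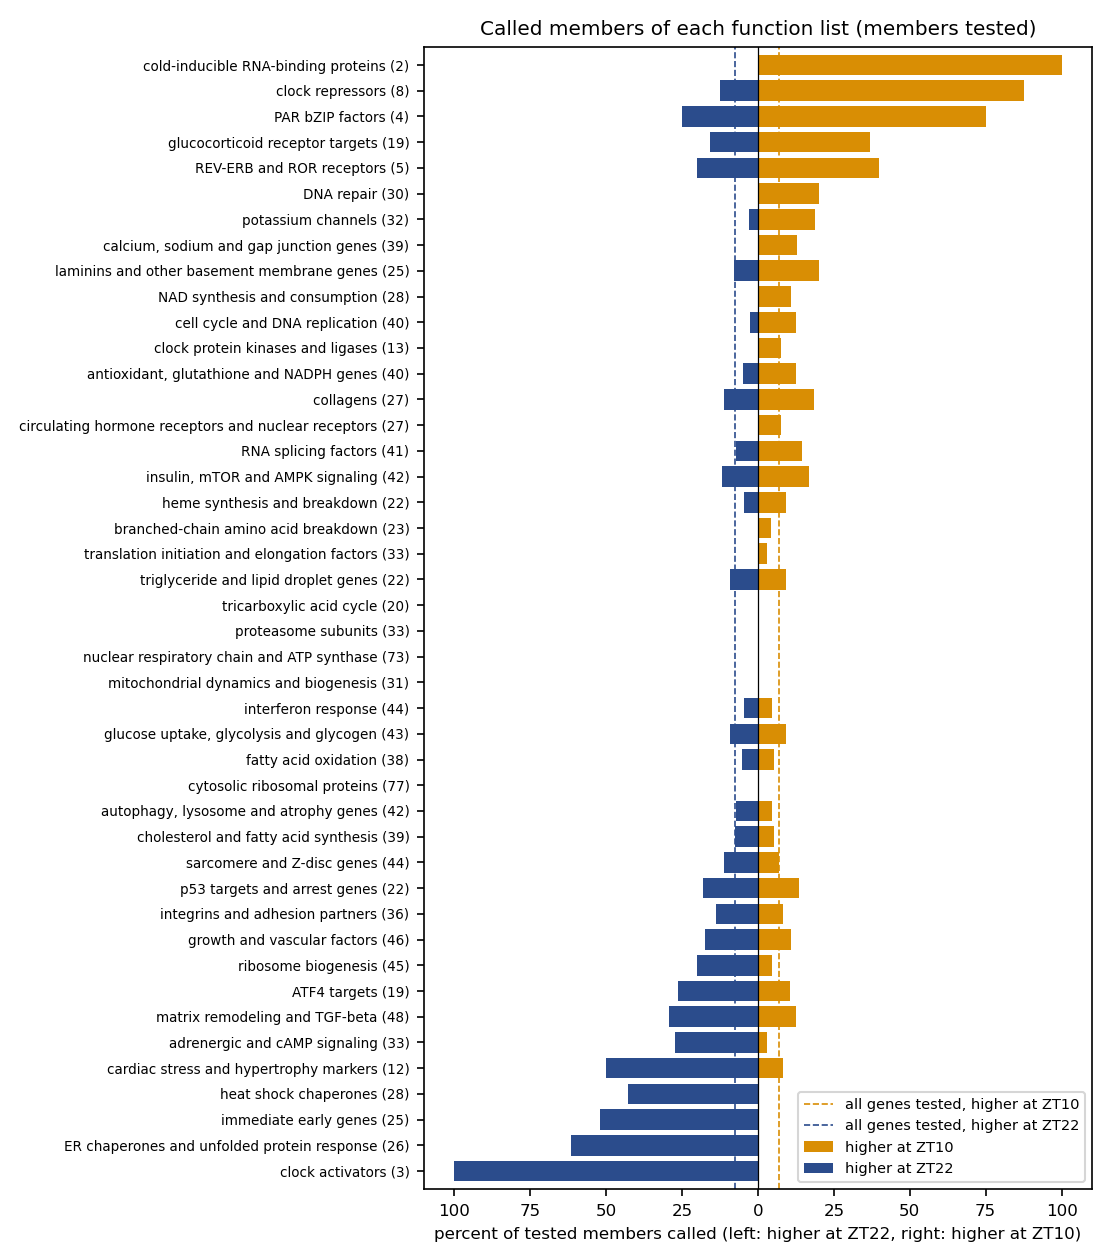
Percent of tested members called in each of the 44 function lists, to the right for higher at ZT10 (orange) and to the left for higher at ZT22 (blue); the number of members tested follows each name. Dashed lines mark the share of all genes tested, 6.8% at ZT10 and 7.57% at ZT22; ER chaperones, heat shock chaperones and immediate early genes have bars at ZT22 only.

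ER chaperones and unfolded protein response genes were higher at ZT22: 16 of 26 were called, none of them higher at ZT10, with a median log2 fold change of -0.34. These proteins fold secreted and membrane proteins in the ER and are induced when folding is under strain. Sdf2l1 (chr16:17130138-17132383), an ER chaperone partner, had counts of 54.5, 39.4 and 35.2 at ZT10 and 203, 201 and 166 at ZT22 (log2 fold change -2.13, SE 0.18, edgeR adjusted p = 3.06e-08). Manf, an ER-resident secreted factor, had counts of 235, 186 and 232 at ZT10 and 556, 520.5 and 457 at ZT22 (log2 fold change -1.24, SE 0.09, edgeR adjusted p = 9.12e-09). Hyou1, a large ER chaperone, had counts of 570.3, 479.8 and 587 at ZT10 and 1256, 1260.4 and 1099 at ZT22 (log2 fold change -1.15, SE 0.07, edgeR adjusted p = 4.73e-10). For all 3 the lowest ZT22 heart was well above the highest ZT10 heart. Creld2, another ER-resident folding factor, followed with 145, 113 and 147 at ZT10 and 295, 281 and 255 at ZT22 (log2 fold change -1.04, SE 0.11, edgeR adjusted p = 8.21e-07). Lesser changes were those of Syvn1 (-0.77), a ubiquitin ligase of ER-associated degradation, Xbp1 (-0.69), a transcription factor of the response, Dnajc3 (-0.63), a chaperone partner, Hspa5 (-0.47), the main ER chaperone BiP, and Hsp90b1 (-0.41), another ER chaperone. The call on Hspa5 was lost without ZT10 replicate 2 or ZT22 replicate 1 and that on Hsp90b1 without ZT10 replicate 2. Between 13 and 16 members were called when 1 heart was left out.

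Of 22 ER-list genes with a RefSeq promoter, 8 (36.4%) held the ER stress element (CCAAT, 9 bases of any kind, CCACG) on either strand, whereas 16 of the 11343 tested genes with a promoter did (0.141%). The element occurred in promoters of 6 of 888 genes higher at ZT22 and of none of the 811 genes higher at ZT10. Those 6 genes, all in the ER list, are shown because the RNA change and the element occur in them together. The element was first described in ER chaperone genes, so list and element are not independent. Calr and Canx also held it and were not called (-0.14 and -0.02, edgeR adjusted p = 0.521 and 0.937). Capitals mark the element, in GRCm38.p6:
Hspa5, chr2:34772019-34772048, plus strand: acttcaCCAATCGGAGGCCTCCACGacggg
Creld2, chr15:88819494-88819563, plus strand: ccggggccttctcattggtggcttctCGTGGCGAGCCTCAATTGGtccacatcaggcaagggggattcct
Dnajc3, chr14:118937801-118937870, plus strand: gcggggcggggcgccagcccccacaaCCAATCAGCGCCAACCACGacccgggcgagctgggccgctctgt
Syvn1, chr19:6046506-6046575, plus strand: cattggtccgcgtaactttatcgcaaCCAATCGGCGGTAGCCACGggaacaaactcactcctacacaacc
Pdia6, chr12:17266465-17266534, plus strand: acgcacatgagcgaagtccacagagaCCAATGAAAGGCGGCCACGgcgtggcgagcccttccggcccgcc
Hsp90b1, chr10:86705613-86705682, minus strand: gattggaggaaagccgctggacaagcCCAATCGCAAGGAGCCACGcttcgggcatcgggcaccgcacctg
The Creld2 promoter carries it on the opposite strand, and Hsp90b1 holds a further copy nearer its start.

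Heat shock chaperones changed the same way: 12 of 28 were higher at ZT22 and none at ZT10, with a median of -0.20. Hsph1, a chaperone related to HSP70, had counts of 736, 504 and 541 at ZT10 and 1127, 1199 and 1244 at ZT22 (log2 fold change -1.004, SE 0.10, edgeR adjusted p = 6.28e-07). Hsp90aa1, an inducible cytosolic chaperone, had counts of 492, 430.1 and 428 at ZT10 and 729, 849 and 799 at ZT22 (log2 fold change -0.82, SE 0.09, edgeR adjusted p = 1.53e-06). Both were higher in every ZT22 heart than in every ZT10 heart. The stress-inducible pair Hspa1a and Hspa1b behaved unevenly. Hspa1b had counts of 22.2, 22.8 and 11.3 at ZT10 and 24.1, 162 and 101.4 at ZT22 (log2 fold change -2.37, SE 0.43, edgeR adjusted p = 0.000665). Hspa1a had counts of 20.01, 16.6 and 8.79 at ZT10 and 17.7, 174 and 77.3 at ZT22 (log2 fold change -2.58, SE 0.50, edgeR adjusted p = 0.00123). ZT22 replicate 1 lay within the ZT10 hearts for Hspa1a and just above them for Hspa1b, and replicates 2 and 3 were several times higher. DESeq2 on the 6 hearts alone did not call Hspa1a. The 2 genes are near-identical in sequence and only uniquely placed reads were counted, so their counts are uncertain. Hsf1, the heat shock transcription factor, was higher at ZT22 at -0.39 (edgeR adjusted p = 0.000309). Between 10 and 13 members were called when 1 heart was left out.

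The cold-inducible RNA-binding proteins, which rise when body temperature falls, went the other way. Cirbp had counts of 521, 539 and 608 at ZT10 and 298, 219 and 237 at ZT22 (log2 fold change 1.16, SE 0.10, edgeR adjusted p = 5.75e-08). Rbm3 had counts of 364, 376 and 362 at ZT10 and 288, 313 and 271 at ZT22 (log2 fold change 0.34, SE 0.08, edgeR adjusted p = 0.00864). Both were higher in all ZT10 hearts, Cirbp by more than Rbm3, and the call on Rbm3 was lost without ZT22 replicate 3.

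Immediate early genes, which respond within minutes to growth factors, stretch or stress, gave 13 calls of 25, all higher at ZT22, with a median of -0.46. The spread among ZT22 hearts was wide. Egr3 had counts of 8.89, 21.8 and 16.3 at ZT10 and 34.2, 100.3 and 65.8 at ZT22 (log2 fold change -2.11, SE 0.36, edgeR adjusted p = 0.000312). Atf3 had counts of 61.1, 69.4 and 93 at ZT10 and 76, 587 and 233 at ZT22 (log2 fold change -2.05, SE 0.45, edgeR adjusted p = 0.00335). Egr2 had counts of 7.78, 7.25 and 2.51 at ZT10 and 7.6, 42.2 and 19.9 at ZT22 (log2 fold change -1.997, SE 0.52, edgeR adjusted p = 0.0113). For Atf3 and Egr2 replicate 1 at ZT22 lay within the ZT10 hearts and replicate 2 was the highest heart by a factor of 2 or more. Fosb overlapped between times, with 6.67, 18.6 and 6.28 at ZT10 and 21.6, 43.1 and 15.7 at ZT22 (log2 fold change -1.33, SE 0.43, edgeR adjusted p = 0.0393). Egr1, another zinc finger factor of the class, had 133, 139.9 and 104 at ZT10 and 318, 308 and 212 at ZT22 (log2 fold change -1.14, SE 0.17, edgeR adjusted p = 7.86e-05) and kept its call whichever heart was left out. Without ZT22 replicate 2 only 4 members were called, and without ZT22 replicate 1 there were 18, while DESeq2 on the 6 hearts alone called 8. The calls on Atf3, Egr2 and Fosb were among those lost without ZT22 replicate 2; Egr2 was lost also without ZT10 replicate 3, and Fosb without either ZT10 replicate 1 or 3.

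**Figure D4:**
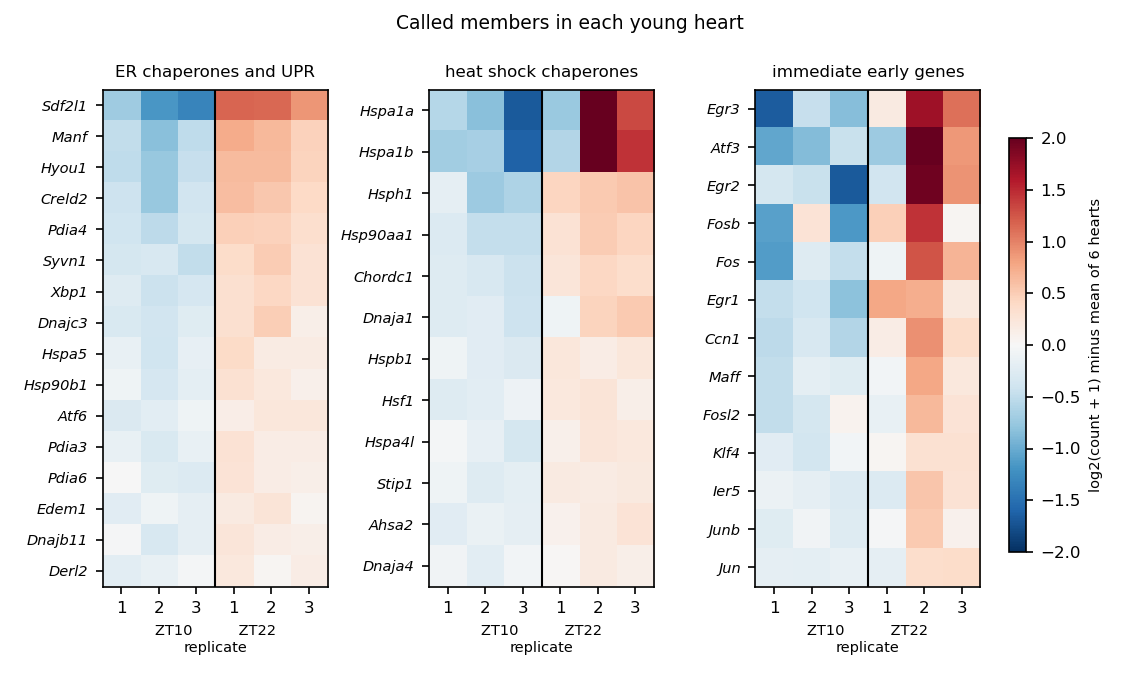
log2(normalized count + 1) minus the mean of the 6 hearts (color scale, from -2 to 2) for the called members of 3 lists, 16 ER genes, 12 heat shock genes and 13 immediate early genes, in each young heart. The first 8 ER genes are above their mean in all 3 ZT22 hearts and below it in all ZT10 hearts, whereas Hspa1a, Hspa1b, Atf3 and Egr2 are low in ZT22 replicate 1 and highest in ZT22 replicate 2.

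Targets of ATF4, the factor of the integrated stress response, were split, with 5 of 19 higher at ZT22 and 2 higher at ZT10 (median -0.11). Besides Chac1, Cebpb, a bZIP factor of metabolism and inflammation, rose at ZT10, with 348, 397 and 411 at ZT10 and 161, 188 and 213 at ZT22 (log2 fold change 1.03, SE 0.13, edgeR adjusted p = 1.52e-05). Mthfd2, a mitochondrial folate enzyme, was higher at ZT22, with 24.5, 29 and 20.1 at ZT10 and 40.6, 55.3 and 52.2 at ZT22 (log2 fold change -1.01, SE 0.22, edgeR adjusted p = 0.00356). Gdf15, a stress-induced hormone, had low and overlapping counts of 11.1, 6.22 and 3.77 at ZT10 and 10.1, 28.1 and 19.9 at ZT22 (log2 fold change -1.47, SE 0.47, edgeR adjusted p = 0.0396), and its call was lost without ZT10 replicate 2 or 3 or ZT22 replicate 2 or 3. Without ZT10 replicate 3 or without ZT22 replicate 3 the list gave 4 calls.

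Of 12 cardiac stress markers 6 were higher at ZT22 and 1 at ZT10 (median -0.42). Tnfrsf12a, the receptor of the cytokine TWEAK, had counts of 217, 139 and 119 at ZT10 and 422, 659 and 505 at ZT22 (log2 fold change -1.74, SE 0.17, edgeR adjusted p = 4.63e-07). Nppb, the B-type natriuretic peptide, had counts of 379, 189.7 and 153 at ZT10 and 654, 639.6 and 671 at ZT22 (log2 fold change -1.44, SE 0.22, edgeR adjusted p = 8.01e-05). Rcan1, an inhibitor of calcineurin that calcineurin itself induces, had counts of 569, 558 and 617 at ZT10 and 1163, 1584 and 1280.0 at ZT22 (log2 fold change -1.21, SE 0.11, edgeR adjusted p = 8.34e-08). The hearts of the 2 times were apart for all 3. Nppa, the A-type peptide and an atrial gene, had counts of 376, 221 and 195 at ZT10 and 223, 243 and 224 at ZT22 and was not called (edgeR adjusted p = 0.599). The slow myosin Myh7 was the member higher at ZT10 (0.52, edgeR adjusted p = 0.0249), and its call was lost without ZT10 replicate 1 or 3 or ZT22 replicate 2 or 3. The list gave 4 calls without ZT10 replicate 3 or without ZT22 replicate 2.

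Adrenergic and cAMP signaling genes gave 9 of 33 higher at ZT22 and 1 higher at ZT10 (median -0.06). Crem, a cAMP-responsive transcription factor, had counts of 119, 117 and 108 at ZT10 and 151, 295 and 201 at ZT22 (log2 fold change -0.93, SE 0.17, edgeR adjusted p = 0.000558). Grk5, a kinase that desensitizes adrenergic receptors, had counts of 663, 543 and 481 at ZT10 and 854, 1231 and 971 at ZT22 (log2 fold change -0.86, SE 0.13, edgeR adjusted p = 7.57e-05). Pde8a, a cAMP phosphodiesterase, was higher at ZT22 at -0.49 (edgeR adjusted p = 0.000707). Adra1a, the alpha-1A adrenergic receptor, was the member that rose at ZT10, with 201, 362 and 386 at ZT10 and 149.6, 198 and 141 at ZT22 (log2 fold change 0.94, SE 0.18, edgeR adjusted p = 0.00111). No heart crossed between times for Crem, Grk5 or Adra1a, while Adrb1, the main beta receptor, was not called (-0.12, edgeR adjusted p = 0.473). The cAMP response element TGACGTCA occurred in promoters of 5.41% of genes higher at ZT22 (48 of 888) and 1.6% of genes higher at ZT10 (13 of 811). Of all tested genes with a promoter, 3.41% held it. Between 7 and 10 members were called when 1 heart was left out.

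Matrix remodeling and TGF-beta genes included 20 called of 48, 14 higher at ZT22 and 6 higher at ZT10 (median -0.07). Adamts4, a protease that cleaves proteoglycans, had few reads at ZT10, with 1.11, 2.07 and 6.28 at ZT10 and 58.3, 40.3 and 41.8 at ZT22 (log2 fold change -3.89, SE 0.43, edgeR adjusted p = 1.93e-06). Mmp3, a matrix protease, had counts of 23.4, 13.5 and 8.79 at ZT10 and 41.8, 62.8 and 53.3 at ZT22 (log2 fold change -1.78, SE 0.34, edgeR adjusted p = 0.000916). Lox, which cross-links collagen and elastin, had counts of 41.1, 31.1 and 44 at ZT10 and 73.5, 120 and 142 at ZT22 (log2 fold change -1.55, SE 0.26, edgeR adjusted p = 0.000271). Mmp14, a membrane-bound matrix protease, had counts of 87.8, 117 and 141 at ZT10 and 218, 312 and 234 at ZT22 (log2 fold change -1.16, SE 0.14, edgeR adjusted p = 6.58e-06). In all 4 genes every ZT22 heart was above every ZT10 heart. Eln, which encodes elastin, was also higher at ZT22 (-1.01, edgeR adjusted p = 3.17e-06), whereas the protease inhibitors Timp3 (0.59) and Timp2 (0.25) rose at ZT10 (edgeR adjusted p = 1.14e-05 and 0.00546). Between 17 and 19 members were called when 1 heart was left out.

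Collagens moved in both directions, with 5 of 27 higher at ZT10 and 3 higher at ZT22 (median 0.11). Col5a3 had counts of 269, 258 and 251 at ZT10 and 773, 754 and 633 at ZT22 (log2 fold change -1.47, SE 0.15, edgeR adjusted p = 4.51e-07). Col14a1 had counts of 420.2, 515 and 489.9 at ZT10 and 256, 274 and 277 at ZT22 (log2 fold change 0.82, SE 0.11, edgeR adjusted p = 2.07e-05). Col4a6 had counts of 61.1, 44.6 and 62.8 at ZT10 and 25.4, 28.1 and 33.4 at ZT22 (log2 fold change 0.94, SE 0.19, edgeR adjusted p = 0.00149). The first of these was higher in all ZT22 hearts and the other 2 in all ZT10 hearts. Col6a6 was higher at ZT10 at 0.69 (edgeR adjusted p = 0.00817), a call lost without ZT10 replicate 2 or ZT22 replicate 3, and 5 collagens were called without ZT10 replicate 2. Basement membrane genes likewise split, 5 of 25 higher at ZT10 and 2 higher at ZT22 (median 0.02). Thbs1, a stress-inducible matrix protein, had counts of 130.1, 113 and 128 at ZT10 and 189, 649 and 274 at ZT22, with ZT22 replicate 2 far above the others (log2 fold change -1.62, SE 0.31, edgeR adjusted p = 0.00106). Thbs2 (0.61) and Tnxb (0.49) rose at ZT10 (edgeR adjusted p = 0.000221 and 0.0008).

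Among integrins and their partners 5 of 36 were higher at ZT22 and 3 higher at ZT10 (median -0.04). Itga11, a collagen receptor of fibroblasts, had counts of 40.02, 45.6 and 33.9 at ZT10 and 89.98, 100.3 and 115 at ZT22 (log2 fold change -1.35, SE 0.15, edgeR adjusted p = 3e-06). Itga8 had counts of 170.1, 131 and 239 at ZT10 and 91.2, 71.3 and 77.3 at ZT22 (log2 fold change 1.17, SE 0.26, edgeR adjusted p = 0.00373). They moved in opposite directions without overlap. Cd44, the hyaluronan receptor, was higher at ZT22 (-0.93, edgeR adjusted p = 0.000799) and Itga3, a laminin receptor, higher at ZT10 (0.46, edgeR adjusted p = 0.00747, lost without ZT22 replicate 3). The list gave 4 calls without ZT10 replicate 1 or without ZT22 replicate 3, and 5 without ZT10 replicate 2. Of 12 fibroblast markers Ddr2 (0.22) and Lum (0.31) were called, both higher at ZT10 (Lum lost without ZT10 replicate 2 or 3 or ZT22 replicate 2 or 3). The summed count of these markers ran from 13440 to 14290 at ZT10 and from 13050 to 13100 at ZT22. In whole hearts fewer cells of a type and less RNA per cell cannot be told apart, and the part of cell number in these results was not tested.

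Growth and vascular factors gave 8 of 46 higher at ZT22 and 5 higher at ZT10 (median -0.14). Ednra, the endothelin A receptor, had counts of 574, 554 and 549 at ZT10 and 772, 1127 and 1039.7 at ZT22 (log2 fold change -0.82, SE 0.12, edgeR adjusted p = 4.66e-05). Its ligand gene Edn1 had counts of 46.7, 54.9 and 51.5 at ZT10 and 84.9, 102 and 96.1 at ZT22 (log2 fold change -0.89, SE 0.16, edgeR adjusted p = 0.000538). Both were higher in every ZT22 heart, as were Egfr, the epidermal growth factor receptor (-0.86, edgeR adjusted p = 0.000698), and Kdr, the main VEGF receptor (-0.53, edgeR adjusted p = 0.000545). Vegfd, a vascular growth factor, rose at ZT10, with 42.2, 50.8 and 36.4 at ZT10 and 8.87, 23.4 and 12.5 at ZT22 (log2 fold change 1.48, SE 0.34, edgeR adjusted p = 0.00427). Of 12 endothelial markers Kdr and the tight junction gene Cldn5 (-1.36, edgeR adjusted p = 5.69e-08) were called. The summed count of those markers ran from 13730 to 14370 at ZT10 and from 14910 to 16020 at ZT22. The part of endothelial RNA in the vascular changes was not tested.

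Called members of the potassium channel list and of the calcium, sodium and gap junction list were higher at ZT10 but for Kcnn1, a calcium-activated channel (-0.35, edgeR adjusted p = 0.0134). The shares called were 21.9% and 12.8%, beside 14.4% of all genes tested. Of these calls 3 and 1 were kept whichever heart was left out. Potassium channels gave 6 of 32 higher at ZT10 and 1 higher at ZT22 (median 0.15). Kcnh2, the channel of the rapid delayed rectifier current, had counts of 1283, 1181 and 1163 at ZT10 and 862, 609.6 and 721 at ZT22 (log2 fold change 0.73, SE 0.09, edgeR adjusted p = 1.04e-05). Kcnd2, of the transient outward current, had counts of 425, 508 and 525 at ZT10 and 322, 329 and 317 at ZT22 (log2 fold change 0.59, SE 0.09, edgeR adjusted p = 5.3e-05). Kcnn2, a relative of Kcnn1, had counts of 251, 213 and 212 at ZT10 and 169.8, 118 and 152 at ZT22 (log2 fold change 0.64, SE 0.13, edgeR adjusted p = 0.00138). For each gene the 3 ZT10 hearts were above the 3 ZT22 hearts. Kcnq1, of the slow delayed rectifier current, was called at 0.35 (edgeR adjusted p = 0.0112), a call lost without ZT22 replicate 2. Without ZT22 replicate 3 the list gave 4 calls. Kcnj3 and Kcnj5, subunits of the acetylcholine-activated channel that atrial tissue holds in plenty, were higher at ZT10 by 0.31 and 0.33 (edgeR adjusted p = 0.0107 and 0.0147). The call on Kcnj3 was lost without ZT10 replicate 1 or ZT22 replicate 3, that on Kcnj5 without ZT10 replicate 1 or ZT22 replicate 2 or 3 and that on Kcnn1 without ZT10 replicate 3 or ZT22 replicate 3. ZT10 replicate 1, the heart with the highest atrial markers, gave the highest Kcnj3 count, and the part of atrial tissue was not tested.

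Calcium, sodium and gap junction genes gave 5 of 39 higher at ZT10 and none higher at ZT22 (median 0.06). Camk2a, a calcium-dependent kinase, had counts of 908, 826 and 947 at ZT10 and 769, 596 and 619.6 at ZT22 (log2 fold change 0.44, SE 0.08, edgeR adjusted p = 0.000695). Cacna1h, a T-type calcium channel, had counts of 388, 295 and 275 at ZT10 and 208, 185 and 207 at ZT22 (log2 fold change 0.68, SE 0.17, edgeR adjusted p = 0.00694). Scn4b, a sodium channel subunit, touched between times, with 819, 723 and 612 at ZT10 and 612, 342 and 444 at ZT22 (log2 fold change 0.64, SE 0.16, edgeR adjusted p = 0.00857). Cacna1h and Scn4b were both highest in ZT10 replicate 1, and both calls were lost without it. Scn10a, a sodium channel of neurons and the conduction system, had counts of 36.7, 53.9 and 85.4 at ZT10 and 41.8, 20.6 and 28.2 at ZT22 (log2 fold change 0.97, SE 0.30, edgeR adjusted p = 0.0298). The call on Scn4b was lost also without ZT22 replicate 2, and that on Scn10a without ZT10 replicate 2 or 3 or ZT22 replicate 2 or 3. The count of calls fell to 3 without ZT10 replicate 1, ZT10 replicate 3 or ZT22 replicate 3, and to 2 without ZT22 replicate 2, while Ryr2, the calcium release channel, was not called (-0.07, edgeR adjusted p = 0.768).

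Sarcomere and Z-disc genes gave 5 of 44 higher at ZT22 and 3 higher at ZT10 (median 0.03). Myot, a Z-disc protein that binds actin, had counts of 298, 287 and 314 at ZT10 and 512, 692 and 546 at ZT22 (log2 fold change -0.97, SE 0.14, edgeR adjusted p = 5.09e-05). Xirp1, an actin-binding protein of the intercalated disc, had counts of 2319, 2263 and 2370.5 at ZT10 and 2859, 4468 and 2729 at ZT22 (log2 fold change -0.53, SE 0.12, edgeR adjusted p = 0.00494). Tcap, which caps titin at the Z-disc, had counts of 1845, 1648 and 1933 at ZT10 and 1342, 1066 and 1141 at ZT22 (log2 fold change 0.61, SE 0.15, edgeR adjusted p = 0.00588). Myom3, an M-band protein, had counts of 83.4, 77.7 and 74.1 at ZT10 and 50.7, 31.9 and 43.9 at ZT22 (log2 fold change 0.92, SE 0.18, edgeR adjusted p = 0.00131). The first 2 were higher in every ZT22 heart and the last 2 in every ZT10 heart.

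The lists of energy metabolism differed in their shares called, beside 14.4% of all genes tested. Glucose and glycogen genes (18.6%), triglyceride genes (18.2%) and fatty acid oxidation genes (10.5%) are described below, and the mitochondrial lists here gave no edgeR call. None of 20 tricarboxylic acid cycle genes and none of 73 nuclear respiratory chain and ATP synthase genes was called by edgeR or, in either form, by DESeq2, with 1 and 0 at an unadjusted p under 0.05. Their medians were 0.07 and 0.06, and the most abundant members, Ogdh and Atp5a1, stood at 0.07 and 0.07 (edgeR adjusted p = 0.835 and 0.855). Of 31 mitochondrial dynamics and biogenesis genes none was called by edgeR (median -0.04), although 3 had an unadjusted p under 0.05, DESeq2 on the 6 hearts alone called 1 and so did edgeR without ZT22 replicate 1. Mfn2, a fusion protein, stood at 0.09 (edgeR adjusted p = 0.723).

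Fatty acid oxidation genes gave 2 of 38 higher at each time (median 0.09). Cpt1a, the liver form of the enzyme that admits fatty acids to mitochondria, rose at ZT10, with 967, 1174 and 999 at ZT10 and 717, 725 and 649 at ZT22 (log2 fold change 0.59, SE 0.10, edgeR adjusted p = 0.000238). Pdk4, a kinase that shuts pyruvate out of oxidation, had counts of 2156, 2823 and 1984 at ZT10 and 2864, 4154 and 2935 at ZT22 (log2 fold change -0.52, SE 0.16, edgeR adjusted p = 0.0387). Angptl4, a secreted inhibitor of lipoprotein lipase, had counts of 87.8, 117 and 28.9 at ZT10 and 293, 302 and 169 at ZT22 (log2 fold change -1.67, SE 0.46, edgeR adjusted p = 0.0176). Cpt1a was higher in all ZT10 hearts, and the other 2 were higher in all ZT22 hearts. The call on Cpt1a was kept whichever heart was left out, that on Pdk4 was lost without ZT10 replicate 1 or 3 or ZT22 replicate 2, that on Angptl4 without ZT10 replicate 3 or ZT22 replicate 2, and that on Slc27a1, a fatty acid transporter (0.30, edgeR adjusted p = 0.0264), without ZT10 replicate 1, 2 or 3 or ZT22 replicate 3. The list accordingly fell to 2 calls without ZT10 replicate 1 or ZT22 replicate 2 and to 1 without ZT10 replicate 3. Triglyceride genes also gave 2 of 22 at each time (median 0.002). Gpam, which starts glycerolipid synthesis, had counts of 3067, 3281 and 3239 at ZT10 and 2332, 2543 and 2212 at ZT22 (log2 fold change 0.44, SE 0.09, edgeR adjusted p = 0.00262) and kept its call whichever heart was left out. The other 3, Pnpla3 (-1.48), Lpin1 (-0.31) and Agpat2 (0.28), did not (edgeR adjusted p = 0.0176, 0.0204 and 0.0133). Pnpla3 was lost without ZT10 replicate 1, 2 or 3 or ZT22 replicate 1, Lpin1 without ZT10 replicate 1 or 2 or ZT22 replicate 1 or 3 and Agpat2 without ZT10 replicate 1 or 2 or ZT22 replicate 2, so that 1 member remained called without ZT10 replicate 1 or 2 and 2 without ZT22 replicate 1.

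Glucose and glycogen genes gave 4 of 43 higher at each time (median 0.05). Pfkfb3 and Pfkfb1 make the sugar phosphate that activates glycolysis. Pfkfb3 had counts of 308, 291 and 317 at ZT10 and 95, 142 and 125 at ZT22 (log2 fold change 1.32, SE 0.18, edgeR adjusted p = 3.86e-05). Pfkfb1 had counts of 258, 341 and 231 at ZT10 and 132, 161 and 129.6 at ZT22 (log2 fold change 0.97, SE 0.20, edgeR adjusted p = 0.00206). Both rose at ZT10 in every heart, as did Slc2a8, a glucose transporter (0.56, edgeR adjusted p = 0.000135). Ppp1r3c, which targets a phosphatase to glycogen, was higher at ZT22, with 1039, 845 and 903 at ZT10 and 1368, 1285 and 1416 at ZT22 (log2 fold change -0.55, SE 0.11, edgeR adjusted p = 0.00214). Between 7 and 8 members were called when 1 heart was left out. Of 23 branched-chain amino acid genes only Klf15 was called, a transcription factor that drives this breakdown, with 774, 709.9 and 815 at ZT10 and 539, 536 and 574 at ZT22 (log2 fold change 0.48, SE 0.08, edgeR adjusted p = 0.000221; list median 0.05).

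NAD genes gave 3 of 28 called, all higher at ZT10 (median 0.02). Nmnat3, the mitochondrial enzyme that forms NAD from its mononucleotide, had counts of 266, 239 and 288 at ZT10 and 204, 188 and 203 at ZT22 (log2 fold change 0.41, SE 0.08, edgeR adjusted p = 0.0012). Nnmt, which methylates nicotinamide, had counts of 33.4, 48.7 and 33.9 at ZT10 and 24.1, 26.3 and 20.9 at ZT22 (log2 fold change 0.71, SE 0.22, edgeR adjusted p = 0.03). Aox1, an aldehyde oxidase, touched between times, with counts of 647, 821 and 776 at ZT10 and 544, 647 and 495 at ZT22 (log2 fold change 0.41, SE 0.11, edgeR adjusted p = 0.0114). Nmnat3 kept its call whichever heart was left out, Nnmt lost it without ZT10 replicate 2 or ZT22 replicate 1, 2 or 3, and Aox1 lost it without ZT10 replicate 2 or ZT22 replicate 3. Without ZT10 replicate 2 or ZT22 replicate 3 a single member was called.

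Cholesterol and fatty acid synthesis gave 2 of 39 higher at ZT10 and 3 higher at ZT22 (median -0.03). Mid1ip1, which activates acetyl-CoA carboxylase, had counts of 909, 821 and 863 at ZT10 and 548, 357 and 499 at ZT22 (log2 fold change 0.90, SE 0.13, edgeR adjusted p = 7.97e-05). Fdft1, the squalene synthase, had counts of 424, 449 and 425 at ZT10 and 309, 273 and 301 at ZT22 (log2 fold change 0.56, SE 0.07, edgeR adjusted p = 9.11e-06). Both were higher in all ZT10 hearts, whereas Cyp51, a sterol demethylase (-0.34), and Elovl5, a fatty acid elongase (-0.32), were higher at ZT22 (edgeR adjusted p = 0.0319 and 0.00679). Cyp51 was lost without ZT10 replicate 2 or 3 or ZT22 replicate 1, 2 or 3, and the list gave 3 calls without ZT22 replicate 1. Antioxidant genes gave 5 of 40 higher at ZT10 and 2 higher at ZT22 (median 0.04). Srxn1, which repairs peroxiredoxins, was higher at ZT22, with 239, 248 and 205 at ZT10 and 314, 521 and 356 at ZT22 (log2 fold change -0.80, SE 0.13, edgeR adjusted p = 0.000244). Idh1, a source of NADPH, was higher at ZT10, with 655, 745 and 734 at ZT10 and 556, 453 and 525 at ZT22 (log2 fold change 0.48, SE 0.10, edgeR adjusted p = 0.00155). Nqo1, a quinone reductase (0.39), and Gsta3, a glutathione transferase (0.43), were also higher at ZT10 (edgeR adjusted p = 0.00673 and 0.028; Gsta3 lost without ZT10 replicate 2 or 3 or ZT22 replicate 1 or 2). Heme genes gave 2 of 22 higher at ZT10 and 1 higher at ZT22 (median 0.01), and only Cpox, an enzyme late in heme synthesis, kept its call throughout, with 589, 505 and 550.2 at ZT10 and 801, 798 and 829 at ZT22 (log2 fold change -0.56, SE 0.08, edgeR adjusted p = 2.48e-05). Alad (0.27) and Flvcr2 (0.54) did not (edgeR adjusted p = 0.0326 and 0.032). Alad was lost without ZT10 replicate 1 or 2 or ZT22 replicate 2 or 3 and Flvcr2 without ZT10 replicate 1 or 2 or ZT22 replicate 1, 2 or 3, so 1 heme gene was called without ZT10 replicate 1, ZT10 replicate 2 or ZT22 replicate 3.

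Insulin, mTOR and AMPK signaling gave 7 of 42 higher at ZT10 and 5 higher at ZT22 (median 0.02). Irs1, the insulin receptor substrate, had counts of 195, 233 and 229.9 at ZT10 and 437, 805 and 554 at ZT22 (log2 fold change -1.46, SE 0.18, edgeR adjusted p = 5.55e-06). Pik3ip1, an inhibitor of PI3 kinase, had counts of 696, 675 and 661 at ZT10 and 368, 264 and 375 at ZT22 (log2 fold change 1.02, SE 0.10, edgeR adjusted p = 3.49e-07). The first was higher in every ZT22 heart and the other in every ZT10 heart. Irs2 (-0.72) and Socs3, a suppressor of cytokine signaling (-0.69), were higher at ZT22 (edgeR adjusted p = 0.0328 and 0.00893). Irs2 was lost without ZT10 replicate 1 or 2 or ZT22 replicate 2 or 3 and Socs3 without ZT10 replicate 1 or ZT22 replicate 2, and the list gave 7 calls without ZT22 replicate 2. Autophagy and atrophy genes gave 2 of 42 higher at ZT10 and 3 higher at ZT22 (median 0.02). Foxo3, a transcription factor of the atrophy program, had counts of 1698, 1603 and 1669.5 at ZT10 and 1052, 1116 and 1297 at ZT22 (log2 fold change 0.52, SE 0.08, edgeR adjusted p = 7.89e-05). Fbxo32, its target ubiquitin ligase, had counts of 1845, 2082 and 2324 at ZT10 and 1498, 1342 and 1551 at ZT22 (log2 fold change 0.51, SE 0.10, edgeR adjusted p = 0.000973). Both were higher in all ZT10 hearts. Fbxo30 (-0.40) and Atg13 (-0.37) were higher at ZT22 (edgeR adjusted p = 0.00224 and 0.0134). Atg13 was lost without ZT10 replicate 1 or ZT22 replicate 2, and 3 members were called without ZT22 replicate 2. None of 33 proteasome genes was called by edgeR or, in either form, by DESeq2, and 0 had an unadjusted p under 0.05 (median 0.04), with Nfe2l1, the factor that induces them, at 0.04 (edgeR adjusted p = 0.862).

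Glucocorticoid receptor targets gave 7 of 19 higher at ZT10 and 3 higher at ZT22 (median 0.03). The 3 higher at ZT22 were Cdkn1a, Angptl4 and Pdk4, given above. Klf9 (0.45) and Tsc22d3 (0.53), which are regulated by the receptor in many tissues, rose at ZT10 (edgeR adjusted p = 0.000154 and 5.31e-05). They were named after their values were seen. Members of the list not called included Fkbp5 (-0.37), Errfi1 (-0.28), Dusp1 (-0.02), Arl4d (0.03), Sgk1 (0.04) and Mt1 (0.08). Map3k6, a stress kinase, had counts of 287, 319 and 271 at ZT10 and 131, 153 and 209 at ZT22 (log2 fold change 0.83, SE 0.21, edgeR adjusted p = 0.0109). Zbtb16, a zinc finger repressor, overlapped between times, with 1354, 994 and 1366 at ZT10 and 531, 785 and 1066 at ZT22 (log2 fold change 0.63, SE 0.21, edgeR adjusted p = 0.0435). Map3k6 lost its call without ZT10 replicate 2 or ZT22 replicate 2, and Zbtb16 without ZT10 replicate 1 or 3 or ZT22 replicate 1 or 2. The list gave 4 calls without ZT22 replicate 2 and 6 without ZT10 replicate 1 or 3. Of 27 hormone and nuclear receptors Nr3c2, the mineralocorticoid receptor, rose at ZT10, with 430.2, 474 and 519 at ZT10 and 289, 316 and 266 at ZT22 (log2 fold change 0.70, SE 0.09, edgeR adjusted p = 1.28e-05). Nr2f2, a receptor of atrial and venous identity, was called at 0.27 (edgeR adjusted p = 0.0421), a call lost without ZT10 replicate 1, 2 or 3 or ZT22 replicate 1 or 2. The list, with a median of -0.04, then gave 1 call without ZT10 replicate 2, ZT10 replicate 3 or ZT22 replicate 2.

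None of 77 cytosolic ribosomal protein genes was called by edgeR (median 0.06; 2 had an unadjusted p under 0.05, DESeq2 called 0 and edgeR without ZT22 replicate 1 called 1), with Rpl4 at 0.07 (edgeR adjusted p = 0.778). Ribosome biogenesis factors gave 9 of 45 higher at ZT22 and 2 higher at ZT10 (median -0.06). Utp18, of the small subunit processome, had counts of 138, 159.6 and 152 at ZT10 and 193, 204 and 191 at ZT22 (log2 fold change -0.39, SE 0.10, edgeR adjusted p = 0.00865). Rrp12 (-0.38) and Wdr12 (-0.37), which also serve ribosome assembly, were higher at ZT22 (edgeR adjusted p = 0.0125 and 0.0136). Polr1e, a subunit of RNA polymerase I, was higher at ZT10, with 305, 282 and 264 at ZT10 and 237, 197 and 202 at ZT22 (log2 fold change 0.43, SE 0.09, edgeR adjusted p = 0.0029). Rrp12 was lost without ZT22 replicate 2 and Wdr12 without ZT10 replicate 3 or ZT22 replicate 3, and 6 members were called without ZT22 replicate 2 and 3 by DESeq2 on the 6 hearts alone. Of 33 translation factors only Eef2k, the kinase that inhibits elongation, was called, with 832, 795 and 781 at ZT10 and 463, 352 and 432 at ZT22 (log2 fold change 0.96, SE 0.07, edgeR adjusted p = 1.18e-08; list median 0.03). It was higher in every ZT10 heart. Splicing factors gave 6 of 41 higher at ZT10 and 3 higher at ZT22 (median -0.003). Rbfox1, a splicing factor of muscle and neurons, had counts of 457, 520.2 and 585 at ZT10 and 383, 423 and 338 at ZT22 (log2 fold change 0.45, SE 0.09, edgeR adjusted p = 0.0011) and kept its call whichever heart was left out. Rbm20, which splices titin (0.31), Hnrnpdl (0.29) and Rbm24 (0.27) did not (edgeR adjusted p = 0.0208, 0.00988 and 0.0473). Rbm20 was lost without ZT10 replicate 1 or 3 or ZT22 replicate 2 or 3, Hnrnpdl without ZT22 replicate 2 and Rbm24 without each of the hearts in turn. The list gave 3 to 5 calls without ZT22 replicate 2 or without any 1 of the ZT10 hearts.

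Cell cycle genes gave 5 of 40 higher at ZT10 and 1 higher at ZT22 (median 0.07). Wee1, a kinase that holds back mitosis and a known clock target, had counts of 381, 516 and 416 at ZT10 and 189, 186 and 216 at ZT22 (log2 fold change 1.16, SE 0.12, edgeR adjusted p = 8.35e-07). Cdc25b, the phosphatase that opposes it, had counts of 67.8, 66.3 and 76.6 at ZT10 and 27.9, 43.1 and 47 at ZT22 (log2 fold change 0.81, SE 0.18, edgeR adjusted p = 0.0031). Both were higher in all ZT10 hearts. Ccne1, cyclin E, was higher at ZT10 at low counts of 28.9, 15.5 and 17.6 at ZT10 and 11.4, 4.69 and 8.36 at ZT22 (log2 fold change 1.38, SE 0.44, edgeR adjusted p = 0.039). Mki67, a marker of dividing cells, was higher at ZT22 but touched between times, with 53.4, 112 and 82.9 at ZT10 and 112, 144 and 149 at ZT22 (log2 fold change -0.71, SE 0.24, edgeR adjusted p = 0.0496). Ccne1 was lost without ZT10 replicate 1 or 3 or ZT22 replicate 2 or 3 and Mki67 without ZT10 replicate 1 or 3 or ZT22 replicate 2 or 3, and 3 members were called without ZT10 replicate 1 or ZT22 replicate 3. Targets of p53 gave 3 of 22 higher at ZT10 and 4 higher at ZT22 (median -0.06). Gadd45b (1.44) and Gadd45a (1.07), growth arrest genes, rose at ZT10 (edgeR adjusted p = 1.29e-05 and 0.000244), opposite to Cdkn1a. Bbc3, which encodes the death protein PUMA, was called at -0.80 (edgeR adjusted p = 0.0287) and lost without ZT10 replicate 2 or 3 or ZT22 replicate 1 or 2. The list gave 4 calls without ZT10 replicate 3 and 3 without ZT22 replicate 2.

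DNA repair genes gave 6 of 30 called, all higher at ZT10 (median 0.14), but few were firm. Ogg1 (0.56), Xpa (0.40) and Ercc3 (0.28), of excision repair, were called on all hearts (edgeR adjusted p = 0.0404, 0.042 and 0.0135). Ogg1 and Xpa were lost without each of the hearts in turn and Ercc3 without ZT10 replicate 2 or ZT22 replicate 2 or 3. A single member was called without ZT10 replicate 2 or ZT22 replicate 3, and 2 without ZT10 replicate 1 or ZT22 replicate 2, and DESeq2 called 1. Interferon response genes gave 2 of 44 at each time (median 0.09). Gbp6, an interferon-induced GTPase, was higher at ZT22, with 72.3, 63.2 and 66.6 at ZT10 and 87.5, 155 and 154 at ZT22 (log2 fold change -0.99, SE 0.21, edgeR adjusted p = 0.00292). Ifi44 (-0.54) was higher at ZT22, and Ifit3 (0.58) and Gbp3 (0.52) were higher at ZT10 (edgeR adjusted p = 0.038, 0.0156 and 0.0359). Ifi44 was lost without ZT10 replicate 1, 2 or 3 or ZT22 replicate 1 or 3, Ifit3 without ZT10 replicate 1 or 2 or ZT22 replicate 2 and Gbp3 without ZT10 replicate 2 or 3 or ZT22 replicate 1, 2 or 3, and between 1 and 2 members were called when 1 heart was left out.

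The change from ZT10 to ZT22 was then set against that of old H2O hearts, by the test of the difference between the changes. The difference was called for 1064 genes (6.89%), of which 811 had the larger absolute change in young hearts. Among the 1064, 719 were called between times in young hearts and not in old H2O hearts, 138 in old H2O hearts and not in young hearts, 69 in both and 138 in neither. Old H2O hearts gave 649 called genes in all, from libraries of 3922137 to 7562215 counted reads. Without the smallest of them, old H2O ZT22 replicate 1, the difference was called for 1206 genes. With library size as covariate it was called for 1519. Of the core clock, Arntl changed by -5.86 in young hearts against -3.19 in old H2O hearts, a difference of -2.67 (SE 0.30, edgeR adjusted p = 1.72e-05). Per3 changed by 3.18 and 1.63 (difference 1.55, edgeR adjusted p = 5.87e-07) and Dbp by 4.66 and 3.26 (difference 1.39, edgeR adjusted p = 0.00103). These genes kept their direction at both ages with a smaller change in old H2O hearts. The difference was not called for Per2 (1.67 and 2.05), Ciart (2.93 and 2.31) or Nr1d1 (1.51 and 1.16), with edgeR adjusted p = 0.287, 0.108 and 0.341.

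Many members of the stress lists that were higher at ZT22 in young hearts differed with age. The difference was called for 15 of 26 ER genes, 11 of 28 heat shock genes, 13 of 25 immediate early genes and 7 of 12 stress markers, beside 6.89% of all genes tested. Of the immediate early genes named, Egr3 lost this call without any 1 of 8 of the 12 hearts compared and Atf3 without any 1 of 9. The ER genes Sdf2l1, Manf, Hyou1 and Creld2 kept it whichever heart was left out. The list medians in old H2O hearts were 0.09 (ER), 0.14 (heat shock), 0.24 (immediate early) and 0.09 (stress markers), against -0.34, -0.20, -0.46 and -0.42 in young hearts. Lists without a call in young hearts also had medians above 0 in old H2O hearts. These were 0.16 for the respiratory chain, 0.14 for the tricarboxylic acid cycle, 0.12 for the proteasome and 0.12 for ribosomal proteins. Called between times in old H2O hearts were 3 ER, 2 heat shock, 3 immediate early and 0 stress marker genes. Sdf2l1 stood at -2.13 in young hearts against 0.14 in old H2O hearts (difference -2.27, edgeR adjusted p = 1.42e-05). Hyou1 stood at -1.15 and -0.01 (difference -1.14, edgeR adjusted p = 2.35e-06). Neither gene was called in old H2O hearts. Cirbp, higher at ZT10 in young hearts (1.16), was -0.22 in old H2O hearts (difference 1.37, edgeR adjusted p = 3.89e-06).

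Among genes also called in young hearts and with a mean count of at least 50 over these 12 hearts, the largest positive differences were those of Pla2g4e, a phospholipase (2.04), Cngb3, a cyclic nucleotide-gated channel subunit (1.94), Map2k6, a kinase upstream of p38 (1.82), and Chrna2, a nicotinic receptor subunit (1.65). Pla2g4e had young counts of 239, 211 and 242 at ZT10 and 95, 46 and 83.6 at ZT22 and log2 fold changes of 1.65 in young hearts against -0.39 in old H2O hearts (edgeR adjusted p of the difference = 2.31e-05). The largest negative ones, with Arntl and Sdf2l1, were Atf3 (-2.38) and Arid5a, an RNA-binding regulator of inflammatory transcripts (-2.22). Arid5a had young counts of 100, 102 and 116 at ZT10 and 132, 421 and 226 at ZT22 and stood at -1.33 in young hearts against 0.89 in old H2O hearts (edgeR adjusted p of the difference = 0.0014). In Atf3 and Arid5a ZT22 replicate 2 was the highest young heart. The called difference of Atf3 did not survive the omission of any 1 of 9 hearts among the 12 compared, and that of Chrna2 the omission of any 1 of 8. The call on the young change of Chrna2 was lost without ZT10 replicate 1 or 2 or ZT22 replicate 1 or 3.

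**Figure D5:**
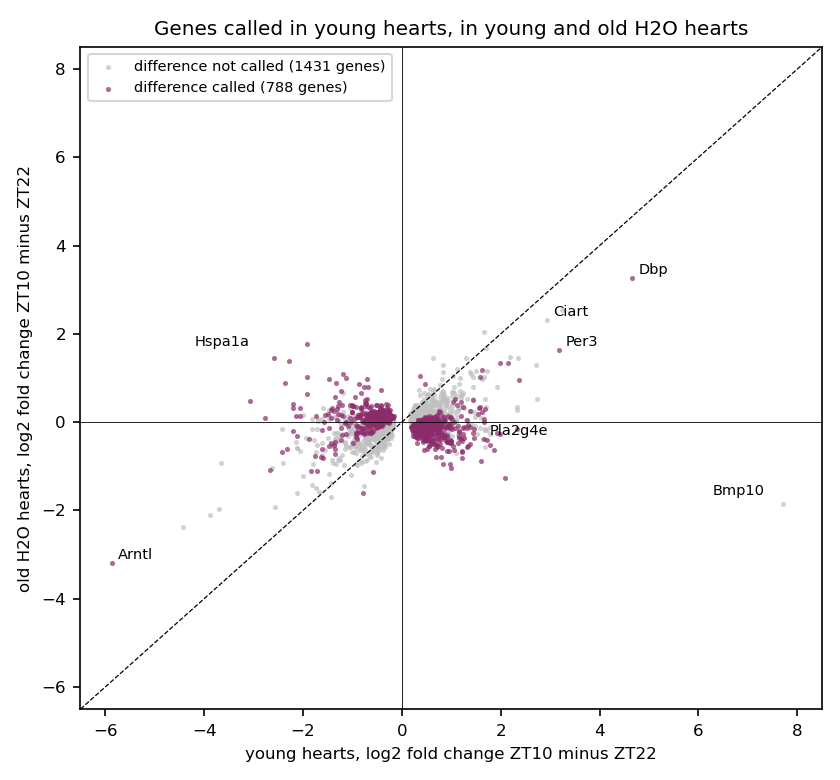
log2 fold change of ZT10 minus ZT22 in young hearts (horizontal) and in old H2O hearts (vertical) for the 2219 genes called in young hearts; purple genes (788) also had a called difference between ages and grey genes did not. The dashed line marks equal change. The genes were chosen by their change in young hearts, so values nearer 0 in old H2O hearts are partly built into the choice; Arntl, Dbp and Per3 keep their direction and Hspa1a crosses 0.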

How the data were processed

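RNA from whole hearts was sequenced as stranded mRNA libraries. Per the labels and the study's methods, the authors trimmed reads (Trimmomatic 0.39), aligned them to mm10 with Ensembl annotation (STAR 2.7.10a), removed duplicates (Picard 3.0.0) and multi-mapping, ribosomal and mitochondrial reads, and counted genes (featureCounts 2.0.4). Unique mapping lowers the counts of near-identical genes. The deposited raw counts were used for every test. A second deposited table, of counts the authors divided by DESeq2 (1.36.0) size factors and rounded, has the unit score and served only for gene symbols and as a check. The names of these 2 files are exchanged relative to their values.

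The 18 hearts were fitted together in edgeR 4.0.16 (limma 3.58.1, R 4.3.3) with TMM factors, an average count over 5, a mean per group, quasi-likelihood tests and Benjamini-Hochberg adjustment. Tested on simulated data, 165 of 200 genes changed by a log2 fold of 1 were recovered in young hearts, with 9 false calls, and 145 with 6 for the difference from old hearts. DESeq2 1.42.0 was an alternative. Coordinates are GENCODE M21 gene models. The members, gene lists and motifs were chosen with earlier results of these data known. Named genes were the 8 largest changes each way at a mean count of at least 50 without overlap, all members of 5 clock and cold-inducible lists, up to 4 called members of each other list by size (the most abundant where none was called), and the 4 largest differences from old hearts each way. A few genes that this rule names are not reported here, and other genes were named after their values were seen.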

Additional observations from a re-analysis of the deposited data

Results flagged for a closer look

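The difference between the ZT10 to ZT22 change of young hearts and that of old H2O hearts was called by edgeR for 1064 genes, among them many of the genes named above, and each value here is the young change minus the old H2O change on the log2 scale. Of the 76 differences listed, 48 stayed called whichever of the 12 hearts was left out. The most losses came without young ZT22 replicate 2 (21), without old H2O ZT10 replicate 1 or 3 (18 each) and with DESeq2 on the groups compared (17). The 23 lost without 4 or more of the hearts in turn were Per1, Hlf, Gdf15, Slc2a8, Ppp1r3c, Klf15, Nnmt, Nmnat3, Scn4b, Camk2a, Adra1a, Grk5, Thbs1, Cd44, Fbxo30, Atg13, Egr3, Atf3, Polr1e, Wdr12, Gadd45b, Srxn1 and Chrna2.

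Among clock genes and their close targets the difference had the sign of the young change in each case, so the young change was the larger: Dbp (1.39), Per3 (1.55), Nr1d2 (0.79), Per1 (0.64), Bhlhe41 (0.58), Tef (0.57) and Hlf (0.44) on the ZT10 side, and Arntl (-2.67), Nfil3 (-1.60), Clock (-0.75) and Cry1 (-0.51) on the ZT22 side. Of the other genes with the largest young changes it was called for Arrdc2 (1.41), Lrrc17 (1.60), Cdkn1a (-1.76) and Gm46637 (-3.66).

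For the stress genes listed here it was negative throughout. They were named for the size of their young change and all were higher at ZT22 in young hearts, so this sign is partly built into the choice. The chaperones were Hspa1a (-4.03), Hspa1b (-3.25), Hsph1 (-1.24), Hsp90aa1 (-1.13), Sdf2l1 (-2.27), Manf (-1.40), Hyou1 (-1.14) and Creld2 (-1.13). The early and stress genes were Egr3 (-1.80), Atf3 (-2.38), Gdf15 (-2.44), Tnfrsf12a (-1.88), Nppb (-1.53), Rcan1 (-0.93) and Srxn1 (-0.66). Cirbp went the other way (1.37).

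Among metabolic and signaling genes the values were Cpt1a (0.90), Pfkfb1 (1.09), Slc2a8 (0.47), Ppp1r3c (-0.53), Klf15 (-0.39), Nnmt (1.06), Nmnat3 (0.42), Idh1 (0.58), Cpox (-0.58), Irs1 (-1.33), Fbxo30 (-0.40), Atg13 (-0.54), Nr3c2 (0.72), Eef2k (0.99), Polr1e (0.44) and Wdr12 (-0.50). Klf15 differs from the clock genes with a called difference in that its change was 0.48 in young hearts against 0.87 in old H2O hearts, the larger one being the old.

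Channel, receptor and sarcomere genes gave Kcnh2 (0.71), Kcnd2 (0.54), Cacna1h (1.19), Scn4b (0.74), Camk2a (0.44), Adra1a (0.80), Crem (-1.27), Grk5 (-0.64), Myot (-1.05) and Myom3 (1.21). Matrix and adhesion genes gave Col5a3 (-0.94), Col4a6 (1.03), Col14a1 (1.10), Thbs1 (-1.44), Tnxb (0.54), Itga11 (-0.89), Itga8 (1.49), Cd44 (-0.88), Itga3 (0.67) and Ednra (-0.86). Cell cycle and immune genes gave Gadd45b (0.94), Gadd45a (1.20), Mki67 (-1.69) and Gbp6 (-1.35). For Mki67 the difference was larger in size than the young change, so its change in old H2O hearts ran the other way, toward ZT10.

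The genes chosen for the size of this difference were Pla2g4e (2.04), Cngb3 (1.94), Map2k6 (1.82), Chrna2 (1.65) and Arid5a (-2.22), beside Arntl, Sdf2l1 and Atf3.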

How the results depend on the processing

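None of the 2219 genes called in young hearts and none of the 1064 called differences changed sign under any alternative. In young hearts 2219 genes were called by edgeR over all hearts, and DESeq2 on the 6 hearts alone called 1214 (589 higher at ZT10 and 625 at ZT22). The other settings gave 1712 (DESeq2 on 18 hearts), 2221 (DESeq2 size factors), 2040 (no filter on low counts), 2263 (edgeR's own filter), 1965 (edgeR on the 6 hearts) and 2746 (library size as covariate). Leaving out 1 heart gave 1484 to 2108, with 733 to 979 higher at ZT10 and 751 to 1129 higher at ZT22, the fewest without ZT22 replicate 2 and the most without ZT22 replicate 1. For the difference from old H2O hearts, 1064 genes became 639 with DESeq2 on the groups compared (335 positive and 304 negative). Library size as covariate gave 1519 (780 positive and 739 negative). Leaving out 1 heart gave 722 (without young ZT10 replicate 2) to 1248 (without young ZT22 replicate 1), with 394 to 722 positive and 328 to 606 negative. Replicate numbers did not pair the hearts: the correlations of same-numbered deviations were 0.003, 0.008 and -0.024, and the replicate block gave 2068 and 1060 calls. Of 150 called named genes, 49 lost their call under at least 1 alternative, and 34 lost it under an alternative other than leaving out a heart. The cause of these changes was not tested. At this depth genes of low count were rarely called.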
